A study of Mus musculus with 18 samples.

Results

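The comparison described here set PyMT-BO1 cells carrying a signalling-deficient integrin β3 (Δβ3) in docetaxel against the same cells carrying the empty vector (pMx) in docetaxel. It took 6 of the 18 libraries of the series, chosen by their labels, 3 for each line. PyMT-BO1 is a mouse breast cancer line described as luminal B-like, of C57BL/6 background. All cells had lost their own integrin β3 by knockout and were then transduced with a retrovirus. The groups used were Δβ3 in docetaxel, pMx in docetaxel, and, for reference, the line with functional integrin β3 (hβ3) in docetaxel and the Δβ3 and pMx lines in DMSO, with 3 cultures each. Docetaxel was given at 10 nM, and both docetaxel and DMSO lasted 24 h. Each construct is represented by 1 line, so the construct cannot be told apart from any other feature of its line. P-values measure the spread between cultures of the same group, not between lines. Except where only some groups were fitted, that spread was estimated jointly over all 6 groups of the series. No source used here gives the mutation in Δβ3 or the species of that construct.

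Integrin β3 pairs with αv or αIIb at the cell surface, binds matrix proteins such as vitronectin, and passes signals to kinases and the actin skeleton through its short cytoplasmic tail. A receptor with a defective tail can still reach the surface and hold matrix while failing to signal. Docetaxel stabilises microtubules and stops cells in mitosis. Among the earliest transcripts to answer integrin, growth factor and stress signals through the MAP kinase ERK are the immediate-early genes, which encode transcription factors such as FOS and EGR1, and the dual-specificity phosphatases, which switch MAP kinases off again. The comparison asks which transcripts a β3 subunit without signalling function leaves different from no β3 subunit at all, in drug-treated cells.

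Total counts per library were 14681161, 8597870 and 9598135 in Δβ3 docetaxel cultures 1 to 3, against 7972612, 9059479 and 18154008 in pMx docetaxel cultures 1 to 3. Culture 2 of Δβ3 stood apart. The 32 heart muscle markers summed to 397.8, 59810 and 555.3 CPM (counts per 1000000 of the scaled library) in Δβ3 docetaxel cultures 1 to 3, against 3012, 293.4 and 396.8 CPM in pMx docetaxel. In culture 2 of Δβ3, 25 of the 32 were at 1 CPM or more and 7 had no count. In the 5 other libraries, 20 to 23 were at 1 CPM or more and 6 to 10 had no count. Fibroblast markers (1507 CPM against 274.9 to 456.2 in the 5 other libraries), endothelial markers (837.8 against 58.6 to 98.7) and leukocyte markers (237.5 against 49.6 to 62.9) were high in the same culture, and the ribosomal RNA precursor Rn45s took 23.6% of its counts, against 6.59% to 8.81%. Its Itgb3 level was 29.8% and its Krt8 level 34.2% of the mean of Δβ3 cultures 1 and 3. Of 18 luminal markers, 5 or 6 reached 1 CPM in each of the 6 libraries, led by Krt8 and Krt18. The defining markers Epcam, Krt19, Esr1 and Gata3 had at most 2 counts in any of the 6 libraries. Of these, Krt19, Esr1 and Gata3 have several transcript models, and reads shared between models may be missing. Results are therefore given with all 18 libraries in the model, with 17 (without Δβ3 docetaxel culture 2) and with 16 (also without Δβ3 DMSO culture 1, which had 7156 CPM of heart markers and, although outside the comparison, feeds the shared estimate of the spread). In such bulk libraries, fewer cells of a type and less RNA per cell cannot be told apart. The part of the heart transcripts in each result was not tested beyond these fits.

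**Figure D1:**
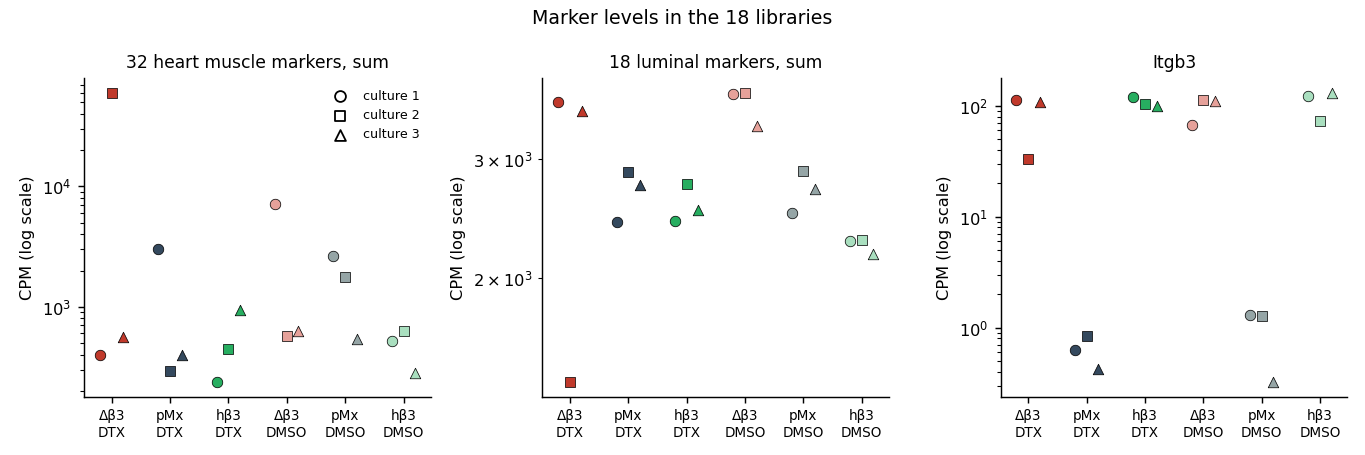
Summed CPM of 32 heart muscle markers, summed CPM of 18 luminal markers and CPM of Itgb3 in all 18 libraries, on log axes, with 1 point per culture; DTX is docetaxel. The Δβ3 docetaxel culture 2 point lies highest for heart markers and lowest for luminal markers.

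Signalling-deficient β3 and the empty vector left docetaxel-treated cells with few transcripts apart. With all 18 libraries, 3 of 12145 tested genes were called (edgeR quasi-likelihood test, adjusted p under 0.05, 0.0247% of those tested), with Itgb3 and Fos higher in Δβ3 (0.0165%) and Igsf11 lower (0.00823%). With 17 libraries 8 of 12437 genes were called (0.0643%), 6 higher (0.0482%) and 2 lower (0.0161%). With 16 libraries 56 of 12356 were called (0.453%), 46 higher (0.372%) and 10 lower (0.0809%). For scale, the same 3 Δβ3 cultures differed from hβ3 in docetaxel in 1223 genes with 18 libraries (10.1%) and, as 2 cultures, in 2460 genes with 16 libraries (19.9%). The hβ3 and pMx lines differed in 1027 (8.46%) and 3378 genes (27.3%). These comparisons share cultures with one another, so they are set side by side only.

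Intervals narrowed, and the count of calls rose from 3 to 56, once the 2 libraries with the most heart transcripts were left out. Among the 5482 genes averaging at least 10 CPM, the median absolute log2 difference of Δβ3 against pMx was 0.12 with 16 libraries and the 95th percentile was 0.52. For 5170 of them (94.3%) the 95% interval of the difference lay within 2-fold in either direction. With 18 libraries that share was 82.05%. Over all tested genes it was 64.7% with 16 libraries and 51.7% with 18. The 10 CPM mean was taken over all 6 docetaxel libraries compared, including culture 2 of Δβ3. The biological coefficient of variation, edgeR's measure of the spread between cultures, was 36.1% with 18 libraries, 21.7% with 17 and 13.2% with 16. Of the 56 genes, 46 differed by less than 2-fold, 7 were at least 2-fold higher and 3 at least 2-fold lower.

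Itgb3, the gene that was knocked out and put back in mutant form, checked the labels of Δβ3 against pMx. It lies at chr11:104608000-104670476 (mm10, plus strand). It had 113.5, 32.9 and 107.6 CPM in Δβ3 docetaxel cultures 1 to 3, against 0.635, 0.841 and 0.422 CPM in pMx docetaxel. The pMx values rest on 6, 9 and 9 counts, and the Δβ3 values on 1821, 212 and 1200. The hβ3 docetaxel cultures had 1633, 1449 and 1189 counts, so Itgb3 does not check Δβ3 against hβ3. Every Δβ3 culture was far above every pMx culture, with a log2 fold change of 7.12 ± 0.59 (SE, 3 against 3 cultures, adjusted p = 7.88e-05, 18 libraries). If the construct carries human sequence, only reads that align to mouse Itgb3 are counted, so this is no measure of construct RNA.

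Partners and adaptors of β3 gave few calls. Itgav, the αv subunit that β3 binds, had 636.8, 326.3 and 576.1 CPM in Δβ3 cultures, against 685.0, 570.3 and 599.8 in pMx. Without culture 2 the groups overlapped, and the log2 difference was -0.04 ± 0.09 (SE, 95% interval -0.21 to 0.14, 16 libraries). Itga2b, the αIIb subunit of platelets, was near the detection floor at 1.37, 5.44 and 1.97 CPM in Δβ3 cultures, against 1.27, 1.40 and 1.73 in pMx. Of 24 tested integrins and adaptors, 2 were called with 16 libraries, both higher (0.372% of all tested genes were), 1 of them the knocked-out and re-expressed Itgb3. The list's median log2 difference was 0.02, against 0.01 over all tested genes. Besides Itgb3 this was Itgb7, the β7 subunit that pairs with α4 and αE in leukocytes, with 696.3, 345.1 and 612.7 CPM in Δβ3 cultures, against 508.3, 512.8 and 511.6 in pMx. Cultures 1 and 3 were above all pMx cultures and culture 2 was below them, and the log2 fold change was 0.35 ± 0.07 (adjusted p = 0.0118, 16 libraries). Fermt2, the integrin activator kindlin-2, was at 0.24 ± 0.08 and not called (adjusted p = 0.317).

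The immediate-early genes were the list with the most calls. Fos, the AP-1 transcription factor, had 16.7, 13.1 and 25.9 CPM in Δβ3 docetaxel cultures 1 to 3, against 4.02, 3.55 and 3.42 CPM in pMx docetaxel, from 84 to 289 and 38 to 73 counts per library. All Δβ3 cultures exceeded all pMx cultures. The log2 fold change was 2.34 ± 0.38 with 18 libraries (adjusted p = 0.0421), 2.54 ± 0.33 with 17 (adjusted p = 0.00233) and 2.53 ± 0.28 with 16 (adjusted p = 2.38e-05), the last corresponding to 5.79-fold. The 18-library call of Fos was lost on leaving out any of 14 of the 18 libraries in turn, with adjusted p up to 0.626 without pMx docetaxel culture 3. In hβ3 docetaxel cultures Fos stood at 1.39, 2.14 and 1.35 CPM, below all Δβ3 and all pMx cultures.

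The promoters of 3 called genes are shown because they carry the letters that factors downstream of these kinases are known to bind: the CArG box, bound by serum response factor, and TGACG, the core of the cAMP response element. They were picked for holding these letters. Each is the 250 bases before the RefSeq start (build GRCm38.p6, plus strand), written 5′ to 3′ with the matches named next in capitals. The Fos window is chr12:85473640-85473889 with TGACG starting 129 and 66 bases before the start. The Dusp5 window is chr19:53528895-53529144 with CArG boxes 82 and 72 bases before the start. The Cnn2 window is chr10:79988350-79988599 with a CArG box 56 bases before the start.
Fos: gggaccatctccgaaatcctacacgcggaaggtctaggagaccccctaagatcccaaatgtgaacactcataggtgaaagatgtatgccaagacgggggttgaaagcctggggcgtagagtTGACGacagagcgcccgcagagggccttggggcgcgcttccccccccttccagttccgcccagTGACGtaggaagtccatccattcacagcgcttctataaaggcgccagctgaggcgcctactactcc
Dusp5: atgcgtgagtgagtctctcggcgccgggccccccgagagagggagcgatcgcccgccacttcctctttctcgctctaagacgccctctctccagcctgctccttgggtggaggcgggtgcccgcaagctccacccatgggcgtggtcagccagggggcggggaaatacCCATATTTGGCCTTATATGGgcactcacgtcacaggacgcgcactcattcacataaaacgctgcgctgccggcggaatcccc
Cnn2: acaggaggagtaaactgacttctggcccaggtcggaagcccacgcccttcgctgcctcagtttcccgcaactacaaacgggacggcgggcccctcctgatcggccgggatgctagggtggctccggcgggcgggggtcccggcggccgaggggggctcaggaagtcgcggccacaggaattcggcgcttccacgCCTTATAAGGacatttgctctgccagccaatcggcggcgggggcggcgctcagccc
Of the 56 genes called with 16 libraries, 37 matched the RefSeq table by symbol, with 38 promoters. A CArG box was in 2 of the 38 (5.26%), against 482 of all 32851 promoters in the table (1.47%). Those 2 were the promoters of Dusp5 and Cnn2 shown above. Neither gene was called any longer when pMx docetaxel culture 1 was also left out. TGACG on either strand was in 12 (31.6%), against 5836 (17.8%). A match is a description of letters and not a bound site.

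Egr1, a zinc finger transcription factor induced by ERK (chromosome 18, 34859823 to 34864984, plus strand), had 207.0, 50.5 and 255.1 CPM in Δβ3 docetaxel cultures, against 53.2, 75.5 and 66.3 CPM in pMx docetaxel. Cultures 1 and 3 were above every pMx culture, and culture 2, which also had the low Itgb3 level, was below every pMx culture. It was not called with 18 libraries (log2 1.40 ± 0.38, adjusted p = 0.347). Without culture 2 it was higher by 1.83 ± 0.17 (17 libraries, adjusted p = 3.79e-05) and by 1.82 ± 0.14 (16 libraries, adjusted p = 1.34e-06), which is 3.53-fold. The hβ3 docetaxel cultures lay at 26.6, 26.7 and 25.4 CPM.

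Of 23 tested immediate-early and MAPK output genes, 8 were called higher and none lower with 16 libraries, where 0.372% of all tested genes were called higher and 0.0809% lower. The list's median log2 difference was 0.35, against 0.01 over all tested genes, and 22 of the 23 were positive. With 18 libraries 1 was called, Fos, 16 were positive and the median was 0.22, against 0.05 over all genes. Besides Fos and Egr1, the calls were Dusp2, Ier2, Ier3, Junb, Dusp5 and Jun, of which Ier2, Junb, Dusp5 and Jun, like Fosb and Dusp1 below, are named after their values were seen. Dusp2, a nuclear phosphatase of ERK, had 47.1, 40.4 and 54.8 CPM in Δβ3 cultures, against 25.2, 30.7 and 29.5 in pMx. Its groups did not overlap even with culture 2, and its log2 fold change was 0.83 ± 0.14 (adjusted p = 0.00395, 16 libraries) and 0.74 ± 0.22 with 18 libraries (adjusted p = 0.347). Ier2, an immediate-early nuclear protein, likewise had 61.8, 47.2 and 61.0 CPM in Δβ3 cultures, against 33.97, 44.4 and 38.3 in pMx, a log2 fold change of 0.65 ± 0.11 (adjusted p = 0.00347, 16 libraries).

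The 4 other calls in this list were smaller. Ier3, an early gene that restrains cell death, was higher by log2 0.58 ± 0.11, Junb, an AP-1 partner of FOS, by 0.54 ± 0.12, Dusp5, another ERK phosphatase, by 0.39 ± 0.08, and Jun, the main AP-1 partner, by 0.32 ± 0.07 (adjusted p between 0.0168 and 0.0407, 16 libraries). Jun had 549.9, 372.0 and 525.0 CPM in Δβ3 cultures, against 448.7, 430.0 and 408.1 in pMx. For Jun and Junb, as for Egr1, culture 2 was below all pMx cultures. Among members not called, Fosb had a log2 difference of 0.71 ± 0.17 (adjusted p = 0.06) and Hbegf, an EGF receptor ligand, 0.36 ± 0.09 (adjusted p = 0.064). Dusp1, a stress-induced phosphatase, had 29.4, 128.8 and 30.7 CPM in Δβ3 cultures, against 34.7, 29.4 and 30.1 in pMx, so culture 2 alone was high, and its difference was 0.996 ± 0.43 with 18 libraries and -0.07 ± 0.12 with 16. Against hβ3 in docetaxel, 18 of the same 23 genes were higher in Δβ3 and 2 lower with 16 libraries, where 10.3% and 9.6% of all tested genes were. With pMx docetaxel culture 1 also left out, 6 of 23 were called higher than in pMx, Junb and Dusp5 no longer among them.

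**Figure D2:**
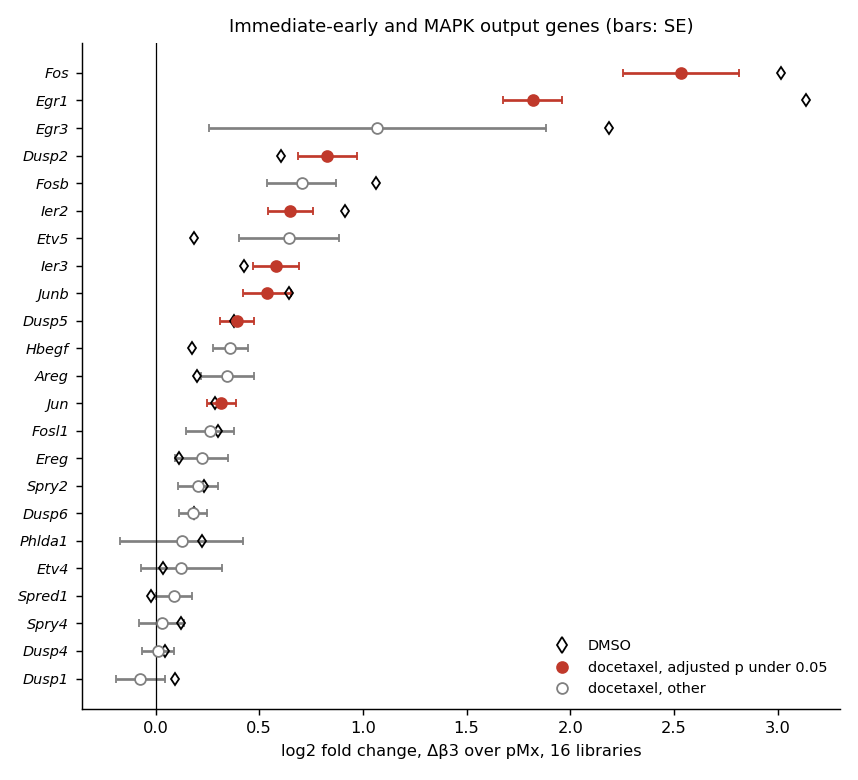
Log2 fold change of Δβ3 over pMx for the 23 tested immediate-early and MAPK output genes with 16 libraries, circles with SE bars for docetaxel and diamonds for DMSO. In docetaxel 22 of the 23 circles lie right of 0, and the 8 called genes are filled.

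Igsf11, an adhesion molecule of the immunoglobulin superfamily (chromosome 16, 38892671 to 39027159, plus strand), was the 1 gene called lower with 18, 17 and 16 libraries alike. It had 10.7, 12.1 and 12.3 CPM in Δβ3 docetaxel cultures, against 27.5, 25.1 and 24.0 CPM in pMx docetaxel. The groups did not overlap, with all 3 Δβ3 cultures within a narrow range. The log2 fold change was -1.12 ± 0.15 with 18 libraries (adjusted p = 0.00426) and -1.16 ± 0.14 with 16 (adjusted p = 3.41e-05). In hβ3 docetaxel it stood at 40.2, 33.0 and 39.4 CPM, above both other lines. Of the 18 libraries left out in turn, 1 ended its call, Δβ3 docetaxel culture 1 (adjusted p = 0.0682).

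Leaving out culture 2 alone added Egr1, Pthlh, Slc25a29 and a transcript listed only by a cDNA identifier to the higher genes and Cachd1 to the lower ones. Pthlh, parathyroid hormone-related protein, a secreted factor known for bone resorption in breast cancer, had 25.1, 10.4 and 25.8 CPM in Δβ3 cultures, against 8.47, 12.4 and 13.4 in pMx. Cultures 1 and 3 were above all pMx cultures, by a log2 fold change of 1.15 ± 0.17 (adjusted p = 0.00753, 17 libraries), while culture 2 lay among them. Slc25a29, a mitochondrial carrier of basic amino acids, had 73.6, 28.9 and 66.9 CPM, against 38.3, 34.3 and 34.3 in pMx, a log2 fold change of 0.98 ± 0.14 (adjusted p = 0.00636). Cachd1, a calcium channel subunit, had 1.68, 8.86 and 1.61 CPM, against 6.35, 5.52 and 4.36 in pMx. Culture 2 was its highest value of all 6 and the others its lowest, with a log2 fold change of -1.69 ± 0.28 (adjusted p = 0.0179), from 18 to 93 counts per library.

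**Figure D3:**
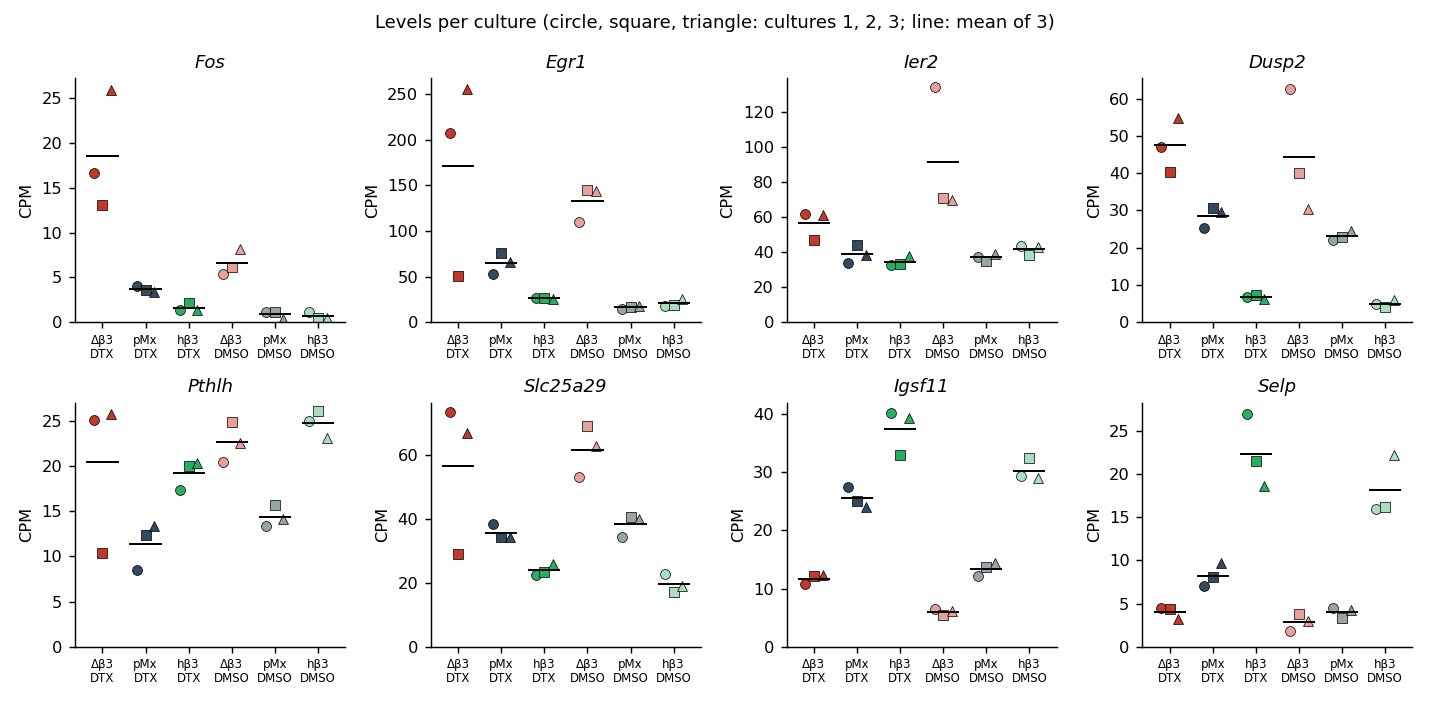
CPM of 8 genes in each culture of the 6 groups (DTX is docetaxel), with a line at the mean of 3 cultures. For Fos, Dusp2 and Ier2 all 3 Δβ3 docetaxel cultures lie above all pMx docetaxel cultures, and for Igsf11 and Selp all lie below; for Egr1 and Slc25a29 the square (culture 2) lies below the pMx cultures.

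The remaining genes in this and the next paragraph were chosen from the 56 called with 16 libraries after their values were seen, apart from Mmp3, Krt8 and Krt18. St8sia1, which makes the ganglioside GD3, had 36.0, 4.97 and 35.5 CPM in Δβ3 cultures, against 19.9, 15.9 and 15 in pMx, a log2 fold change of 1.08 ± 0.18 (adjusted p = 0.00235). Mmp3, the matrix protease stromelysin-1, had 79.6, 27.4 and 75.6 CPM, against 52.5, 52.5 and 45.4 in pMx, and was higher by 0.62 ± 0.11 (adjusted p = 0.00395). In both, cultures 1 and 3 were above and culture 2 below all pMx cultures. Nptx1 and Nptxr, a secreted pentraxin of neurons and its receptor, were both higher, by log2 0.47 ± 0.07 (adjusted p = 0.00159) and 0.76 ± 0.10 (adjusted p = 0.000275). Culture 2 sat at opposite ends for this pair, with 375.6 CPM of Nptx1 against 824.7 to 888.2 in pMx and 189.3 CPM of Nptxr against 38.6 to 48.9 in pMx. The luminal keratins Krt8 and Krt18 were higher by 0.45 ± 0.08 and 0.38 ± 0.08 (adjusted p = 0.00395 and 0.0228), with 1906, 646.3 and 1878 CPM of Krt8 in Δβ3 cultures, against 1255, 1459 and 1415 in pMx. They were the 2 calls among 7 tested luminal markers, whose log2 differences with 16 libraries had a median of 0.38 and ran from -1.77 to 0.66. With 15 libraries Krt18 was no longer called (adjusted p = 0.105), and with 18 no luminal marker was. Crabp2, which carries retinoic acid to the nucleus, was higher by 0.76 ± 0.15, and Ass1, an enzyme of arginine synthesis, by 0.72 ± 0.14 (adjusted p = 0.0114 and 0.0139). Ctcf, the chromatin insulator protein, had 16.3, 18.5 and 17.03 CPM, against 8.78, 8.79 and 8.53 in pMx, 1.91-fold higher (adjusted p = 0.0021, 16 libraries), with no overlap in any culture.

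Of the 10 genes lower in Δβ3 with 16 libraries, Igsf11 and Cachd1 are described above. Selp, the adhesion molecule P-selectin, had 4.43, 4.35 and 3.23 CPM in Δβ3 cultures, against 6.98, 8.04 and 9.66 in pMx, a log2 fold change of -1.11 ± 0.23 (adjusted p = 0.0193). All 3 Δβ3 cultures were below all pMx cultures. Vcam1, a ligand of α4 integrins, had a log2 fold change of -0.44 ± 0.10, and Megf10, an engulfment receptor, one of -0.40 ± 0.09 (adjusted p = 0.0339 and 0.0305). Values were -0.997 ± 0.15 for Ppm1e, a protein phosphatase, -0.63 ± 0.14 for Foxf2, a forkhead transcription factor, and -0.57 ± 0.12 for Zfp503, a zinc finger protein (adjusted p = 0.00159, 0.0344 and 0.0193). Adgra2, an adhesion receptor that acts in WNT7 signalling, had 15.8, 57.3 and 16.8 CPM, against 25.9, 25.1 and 24.8 in pMx. Its log2 fold change was -0.64 ± 0.13 with 16 libraries (adjusted p = 0.0177) and 0.24, not called, with 18. Without pMx docetaxel culture 1, which held 3012 CPM of heart markers, 49 genes were called (0.403%) and 43 of the 56 were among them, all in the same direction. Foxf2, Megf10 and a cDNA-only transcript were no longer called lower there.

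Across the 56 genes, CPM ranges were apart in all 3 against 3 cultures for 26. The 56 were called with 5 of these 6 cultures, in which the ranges of all 56 were apart. The share over all tested genes was not computed, so the 26 is a description only. Of the 46 higher genes, culture 2 of Δβ3 was above all pMx cultures for 19 and below all of them for 24. It was below all pMx cultures for 7 of the 10 lower genes. The shares of culture 2 over all tested genes were not computed either, so these counts too are a description only. With the same 5 docetaxel cultures in a fit of their own, which tested 10655 genes and had a biological coefficient of variation of 15.15%, 7 genes were called. Of the 46 higher genes, 30 were also called higher in Δβ3 than in hβ3 in docetaxel, 5 were lower than in hβ3 and 11 were not called. Of the 10 lower genes, 7 were also lower than in hβ3 and 3 were higher. Of all tested genes, 10.3% were called higher in Δβ3 than in hβ3 and 9.6% lower. The same Δβ3 cultures enter both comparisons, so these counts are not independent of how the 56 were chosen.

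Other processes gave few or no calls with 16 libraries, where 0.453% of all tested genes were called. Of 22 actin, SRF and YAP targets, 2 were higher, and the median log2 difference was -0.08, but 0.22 with 18 libraries, where none was called. Cyr61, a matricellular integrin ligand, had 78.4, 170.5 and 82.1 CPM in Δβ3 cultures, against 60.3, 59.2 and 53.3 in pMx (log2 0.47 ± 0.08, adjusted p = 0.00446), and Cnn2, the actin-binding calponin 2 whose promoter is shown above, 167.7, 234.3 and 165.2 CPM, against 129.2, 130.8 and 136.5 (0.32 ± 0.07, adjusted p = 0.0237). For both, all 3 Δβ3 cultures were above all pMx cultures. Without pMx docetaxel culture 1 (15 libraries) Cnn2 was no longer called (adjusted p = 0.0809). Of 30 p53 targets, 1 was higher, Btg2, which slows cell division (0.53 ± 0.12, adjusted p = 0.0315). Btg2 was not called with 18 libraries (adjusted p = 0.347) or with 15 (adjusted p = 0.11), which left no p53 target called in either. The median of the list was 0.06 with 16 libraries and -0.07 with 18. Plk2, a p53-induced kinase, had 58.7, 61.5 and 57.5 CPM in Δβ3 cultures, against 46.4, 48.5 and 46.0 in pMx. The groups were apart, but the difference of 0.30 ± 0.09 was not called (adjusted p = 0.179). Cdkn1a, the p21 cell cycle inhibitor, stood at -0.02 ± 0.27.

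The sterol synthesis list gave 1 call of 26, Msmo1, a sterol oxidase (0.38 ± 0.07). Its median was 0.21 with 16 libraries and -0.04 with 18, and 3 of its genes were called with 15 libraries. The glycolysis and hypoxia list gave 1 of 24, Ndrg1 (0.48 ± 0.10), with a median of 0.08 with 16 and with 18 libraries. The protease list gave 1 of 17, Mmp3, with medians of 0.14 with 16 libraries and 0.24 with 18. No gene of these 3 lists was called with 18 libraries. None was called, with 16 or 18 libraries, in the lists that follow, whose medians are given with 16 libraries and then with 18. The medians kept their sign for 30 interferon response genes (-0.09 and -0.28), 18 NF-kB and secreted inflammatory genes (0.21 and 0.31), 19 NRF2 targets (0.03 and 0.05), 12 of the EGF receptor family (0.25 and 0.12) and 11 S100 proteins (0.29 and 0.16). They changed sign for 29 genes of G2/M and mitosis (0.05 and -0.25), 28 of DNA replication (0.11 and -0.07), 25 of the ATF4 response (0.03 and -0.06), 24 extracellular matrix and mesenchymal genes (-0.02 and 0.28) and 18 of WNT signalling (-0.14 and 0.17). Those of 22 genes of the BCL2 family and death receptors (0.09 and -0.02) and 18 of the TGF-beta family (0.03 and -0.03), also without a call, changed sign as well. For the targets and exporters of docetaxel, 14 tubulins (median 0.12, and -0.05 over 13 with 18 libraries) and 9 efflux transporters (0.01 and 0.09) gave none. Tubb3, the β-tubulin tied to taxane resistance, had 128.9, 79.6 and 118.7 CPM in Δβ3 cultures, against 126.1, 114.9 and 129.1 in pMx, and its 16-library difference was -0.004 ± 0.09 (95% interval -0.18 to 0.17). Abcb1a, a P-glycoprotein drug exporter gene, had 1.81, 27.5 and 0.627 CPM, against 2.12, 1.59 and 0.703 in pMx, so culture 2 alone was high. Its log2 difference was -0.165 with 16 libraries. That of Abcb1b, another such gene averaging 0.97 CPM over the docetaxel libraries compared, was 0.595, and neither was called. Mki67, a marker of cycling cells, differed by -0.19 ± 0.10 (95% interval -0.38 to 0.01). A missed threshold does not show that the lines were equal.

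Heart muscle markers themselves had a median log2 difference of 4.06 over 23 tested genes with 18 libraries, -1.38 over 22 with 16 and 0.42 over 22 when pMx docetaxel culture 1 was also left out, with no call in any of the 3. Fibroblast markers had medians of 3.53 with 18 libraries, -0.84 with 16 and 0.32 with 15. Endothelial markers had medians of 3.68 with 18, -1.31 with 16 and 0.26 with 15. The medians of all 3 lists were thus positive with 18 libraries, negative with 16 and positive again with 15. Of 4 tested basal and 4 tested leukocyte markers none was called with 16 libraries.

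The same lines in DMSO, in cultures that the docetaxel comparison does not use, gave a second set of libraries. With 18 libraries 5 genes were called there (0.0412%) and with 16 libraries 41 (0.332%). With 16 libraries, 24 genes were called in both conditions, which is 42.9% of the 56 and 58.5% of the 41, all 24 in the same direction. Of the 56, 54 had the same sign in DMSO, the exceptions being Cachd1 at 0.16 and Galnt1, a glycosyltransferase chosen after its values were seen, at -0.00444. All 41 DMSO calls had the same sign in docetaxel. Over all tested genes, 64.4% had the same sign in both conditions with 16 libraries. Of the 23 immediate-early genes, 6 were called higher in DMSO (where 0.275% of all tested genes were), with a median of 0.23. Fos had 5.43, 6.21 and 8.13 CPM in Δβ3 DMSO cultures, against 1.13, 1.15 and 0.387 in pMx DMSO, and Igsf11 6.51, 5.43 and 6.06, against 12.2, 13.8 and 14.3. Over the 5482 genes of at least 10 CPM the log2 differences in the 2 conditions had a Pearson r of 0.80 with 16 libraries and 0.48 with 18, as a description across genes that are not independent. The 16-library value includes 125 genes at least 2-fold lower in both, of which 1, Igsf11, was called in docetaxel, and 124 were more than 4 times as high in Δβ3 docetaxel culture 2 as in pMx docetaxel cultures 2 and 3. In the same fit heart markers had negative medians in both conditions, -1.38 in docetaxel and -1.45 in DMSO, and pMx DMSO cultures 1 and 2 held 2630 and 1772 CPM of them. Over the 4609 genes less than 2 times as high in culture 2 as in Δβ3 cultures 1 and 3, r was 0.65. All these r values include the re-expressed Itgb3, at log2 7.535 in docetaxel and 6.873 in DMSO with 16 libraries. They were not computed without it.

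**Figure D4:**
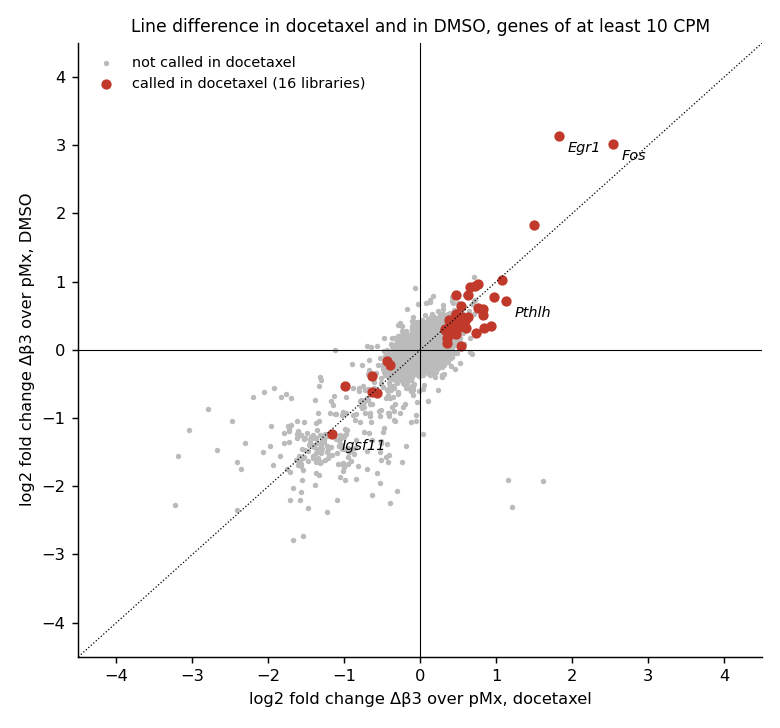
Log2 fold change of Δβ3 over pMx in DMSO against that in docetaxel for genes averaging at least 10 CPM, with 16 libraries and without Itgb3, which lies off this scale; called genes in docetaxel are larger points and the dotted line marks equal values. Fos, Egr1 and Igsf11 lie in the same quadrant in both conditions, and the cloud at lower left holds the 125 genes low in both.

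Whether the line difference depended on the drug was tested as an interaction. No gene was called by edgeR with 18, 17 or 16 libraries (0%), nor by DESeq2 or limma voom with 18; at an unadjusted p under 0.05 these fits gave 520, 431, 353, 580 and 545 genes. With 16 libraries Egr1 had the smallest interaction p; with 18 and with 17 libraries other genes did. It had 109.6, 145.4 and 144.0 CPM in Δβ3 DMSO cultures, against 14.3, 16.9 and 17.7 in pMx DMSO, a log2 fold change of 3.14 ± 0.15 with 16 libraries, against 1.82 ± 0.14 in docetaxel. The difference in response was -1.32 ± 0.21 (adjusted p = 0.0582). It was called by DESeq2 with 16 libraries (-1.33 ± 0.21, adjusted p = 1.17e-06) and by edgeR with 15 (-1.44 ± 0.18, adjusted p = 0.000474), and its adjusted p was 0.763 with 18 libraries and 0.663 with 17. Egr1 levels stood at 207.0 and 255.1 CPM in docetaxel cultures 1 and 3 of Δβ3, against 145.4 and 144.0 in its DMSO cultures 2 and 3, and at 53.2 to 75.5 in pMx docetaxel, against 14.3 to 17.7 in pMx DMSO.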

How the data were processed

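RNA was sequenced from cultures in 6 groups of 3. Per the labels, libraries were made from ribosome-depleted total RNA with random hexamers. The authors deposited raw counts per transcript model, made with FastQC, HISAT2 and featureCounts on mm10 per the submitters' processing notes; the strand setting, the versions and how shared reads were treated are stated in no source used here. Counts of 63759 models were summed to 32699 symbols, 13170 of which had several models. CPM and log2 fold changes were then computed.

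Tests used edgeR 4.0.16 in R 4.3.3 (filterByExpr, TMM, robust quasi-likelihood F-test, a coefficient per group, two-sided, Benjamini-Hochberg over all tested genes, call under 0.05). Intervals are 1.96 SE either side. Alternatives were limma 3.58.1, DESeq2 1.42.0, RLE factors, no filter, other library sets, a replicate block and each library left out. On simulated data for this comparison the 18-library test recovered 43% of 2-fold and 90% of 4-fold changes. The 17-library test recovered 73% and 96%. Each size of change was given to 100 genes, all above a minimum mean CPM. Tested genes below that minimum are therefore not covered by these shares. There were 3 false calls for the 18-library test and 8 for the 17-library test. No smaller library set was simulated, so these shares do not give the power of the fits behind most calls. How heart transcripts affect these shares was not tested. Members and gene lists were chosen with earlier results of these data known. Named genes were protein-coding genes called with 18 or 17 libraries whose mean was at least 2 CPM and whose ranges did not overlap, up to 4 members of each list with the smallest p with 17 libraries, a fixed set of integrin, p53, tubulin and reference genes, and the smallest p of the interaction; others are said to be chosen after their values were seen. Coordinates come from GENCODE M21 on mm10, and promoters from RefSeq GRCm38.p6. Counts were the one unit used; the deposited length of each model was not used.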

Additional observations from a re-analysis of the deposited data

How the results depend on the processing

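The docetaxel count of 3 genes was also 3 with RLE factors, with no filter and without heart markers and Rn45s. It was 9 with DESeq2, 97 with limma voom, 0 with only these 2 groups fitted (252 at an unadjusted p under 0.05), 56 with 16 libraries and 1 to 8 when single libraries were left out (1 without Δβ3 docetaxel culture 1, 8 without culture 2). Among settings chosen after seeing the data, it was 7 with the 5 remaining cultures of the comparison, 112 with 16 libraries and a replicate block, 49 with 15 libraries and 86 with DESeq2 on 16. The DMSO count of 5 was 34 with DESeq2, 34 with limma voom, 2 with only those groups, 41 with 16 libraries, 2 to 20 when single libraries were left out, 46 with 16 libraries and a block, 79 with 15 and 77 with DESeq2 on 16. The interaction count of 0 was 1, Egr1, in those last 3 settings. A replicate block over 18 libraries gave 2 docetaxel calls. Same-numbered docetaxel cultures correlated at -0.53, -0.45 and 0.36 in their deviations from the group means. Culture 2 of Δβ3 and culture 1 of pMx, which held the most heart transcripts, correlated at 0.56. With such cultures included, these values cannot tell whether the numbers pair the cultures.

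Log2 differences that took the other sign from the 18-library value were as follows. Adgra2 was 0.24 with 18 libraries and -0.59 (limma voom), -0.64 (16), -0.67 (5), -0.62 (16 with block), -0.63 (15) and -0.64 (DESeq2 on 16). Abcb1a was -0.17 (16), -0.18 (5), -0.13 (16 with block) and -0.22 (DESeq2 on 16). Dusp1 was -0.074 (16), -0.105 (5), -0.067 (16 with block), -0.001 (15) and -0.069 (DESeq2 on 16). Cdkn1a was 0.074 (16 with block), Itgav 0.042 (15), and Tubb3 0.02 (16 with block) and 0.01 (15). The ranges over single libraries left out were -0.18 to 3.32 for Abcb1a, -0.63 to 0.54 for Adgra2, -0.20 to 0.73 for Ass1, -0.10 to 0.36 for Itgb7, -0.13 to 0.39 for Krt18, -0.13 to 0.46 for Krt8, -0.14 to 0.39 for Msmo1, -0.20 to 0.48 for Nptx1, -0.319 to 0.007 for Tubb3 and -0.064 to 1.33 for Dusp1. The cause was not tested.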
